A study of Mus musculus with 3 samples.

Results

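mmu-miR-26a-5p and mmu-miR-26b-5p (miR-26a-5p and miR-26b-5p from here on), the guide strands of the mouse miR-26 family, were followed through osteoclast formation. They were taken by name and are 2 of the 899 mature miRNAs listed in the deposited tables. A miRNA is a short RNA that, loaded into an Argonaute protein, represses messenger RNAs that pair with its seed, bases 2 to 8 from its 5′ end. The miR-26 family is known for restraining cell growth and is made from within genes for small phosphatases that act on the tail of RNA polymerase II. In mouse macrophages treated with RANKL, miR-26a has been described as a restraint on osteoclast formation that represses connective tissue growth factor.

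Marrow was flushed from long bones of C57BL/6 mice at 11 weeks after birth. Floating marrow cells gave bone marrow macrophages (BMM) with the growth factor M-CSF at 50 ng/mL for 72 h. Preosteoclasts (pOC) had BMM as their source and received M-CSF at 30 ng/mL with the osteoclast-inducing cytokine RANKL at 100 ng/mL for 24 h, and mature osteoclasts (mOC) had the same factors for at least 72 h. All cultures were exposed to alendronate, a bisphosphonate that kills osteoclasts, at 500 µM for 12 h. The series describes the RNA as exosomal while its treatment text speaks of apoptotic bodies, so the vesicle that was sequenced is uncertain. In such bulk material, fewer vesicles or cells of a kind and less RNA in each cannot be told apart. Each stage had 1 library, and the number of mice behind it is not given in the sources used here. No difference between stages could therefore be set against a spread between cultures.

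Both guide strands have the same seed. They are shown because the whole description rests on telling them apart, with the seed in capitals (RefSeq, GRCm38.p6, each 5′ to 3′).
miR-26a-5p: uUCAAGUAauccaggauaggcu
miR-26b-5p: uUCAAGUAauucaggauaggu
Counted from the 5′ end of miR-26a-5p, with its base first, position by position, the differences were C11U and C21U, and miR-26a-5p was 1 base longer, at 22 against 21 bases. With a gap allowed, the absence of C at position 21 accounts for both the second difference and the length, which leaves 2 edits between the pair. Among 1679 mature mouse miRNAs of the RefSeq table, these were the only 2 with the seed UCAAGUA. The next most similar sequence lay 8 edits (substitutions, insertions or deletions) away from each of them. Reads of the family could therefore be confused with each other more easily than with other miRNAs, and how the authors treated mismatches is not given in the sources used here.

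All loci of the family, each on the plus strand, are given by their hairpins. They are shown because miR-26a-5p cannot be assigned to either of its own, with the annotated mature strands in capitals.
Mir26a-1: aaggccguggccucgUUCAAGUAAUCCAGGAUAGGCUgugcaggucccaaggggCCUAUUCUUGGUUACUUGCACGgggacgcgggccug
Mir26a-2: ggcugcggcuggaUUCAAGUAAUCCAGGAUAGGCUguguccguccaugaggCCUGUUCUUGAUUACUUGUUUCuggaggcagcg
Mir26b: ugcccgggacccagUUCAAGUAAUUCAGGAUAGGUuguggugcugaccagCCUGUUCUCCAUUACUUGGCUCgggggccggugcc
Mir26a-1 lies at chr9:119031796-119031885 in an intron of Ctdspl. Mir26a-2 lies at chr10:126995530-126995613 inside Ctdsp2, where the GENCODE annotation of GRCm38 has transcripts with an exon over it. Mir26b lies at chr1:74394310-74394394 in an intron of Ctdsp1. The 5′ strands of Mir26a-1 and Mir26a-2 are identical, so the row miR-26a-5p holds reads of both loci. The 3′ strands differ, and the tables list miR-26a-2-3p and miR-26b-3p.

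The pOC library held 5430426 counts and the mOC library 7017707, and levels are given as CPM (counts scaled to a total of 1000000), a scale that needs no length correction among miRNAs of 21 or 22 bases. BMM is not named in any column header. A further library is headed R, whose meaning no label gives, so its counts were not used and only the authors' fold changes over it are given below. Intervals are exact Clopper-Pearson 95% intervals and, like those of the ratios, cover counting error only. Without molecular identifiers, PCR copies of 1 molecule count as several reads. The 4 miRNAs listed as myeloid (both arms of miR-223 and of miR-142a) had at least 10 counts over both libraries. They summed to 5480 CPM in pOC and 9233 CPM in mOC. Most of that was miR-142a-5p (5112 and 7261 CPM), while miR-223-3p had 70.3 and 250 CPM. By the authors' log2 fold changes of mOC over R, miR-223-3p (-1.69) and miR-223-5p (-2.31) were lower. There miR-142a-3p was higher (2.22) and miR-142a-5p stood at 0.01, so the sum does not settle the cell type. The 27 measured markers of 8 other sources, such as erythroid, stromal and liver or serum miRNAs, summed to 5086 CPM and 2708 CPM.

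Both guide strands were more abundant in mOC than in pOC. miR-26a-5p had 15059 counts in pOC and 54269 in mOC, or 2773 CPM (2729 to 2818) and 7733 CPM (7668 to 7798). It was thus 2.79-fold higher in the mOC library (95% interval 2.74 to 2.84, log2 ratio 1.48), and its place by abundance moved from rank 48 to rank 30. miR-26b-5p had 11536 counts in pOC and 36160 in mOC, or 2124 CPM (2086 to 2163) and 5153 CPM (5100 to 5206). This was 2.43-fold higher in mOC (2.38 to 2.48, log2 ratio 1.28), with a move from rank 54 to rank 37. For neither strand did the counting intervals of the 2 libraries overlap. At this depth such intervals are narrow for any abundant miRNA. Even miR-30a-5p, at 1.03-fold, had a fold interval that left out 1 (1.02 to 1.04). A miRNA was called higher or lower where the fold was 2 or more, its counting interval left out 1 and the 2 libraries together held 10 or more counts. By that rule 49 of 899 miRNAs, 5.45%, were higher in mOC, both guide strands among them, and 69, or 7.68%, were lower. These counts depend on the setting, with 80 higher and 49 lower under the authors' constants per library, and 35 lower where 1 library had to hold at least 50 counts.

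Together the pair took 0.490% of all pOC counts (0.484 to 0.496%) and 1.29% of all mOC counts (1.28 to 1.30%), a 2.63-fold difference (2.60 to 2.67). Rows with a RefSeq sequence, 793 of the 899, fell into 677 groups by seed. Among these the miR-26 seed was at rank 27 in pOC and at rank 15 in mOC. The 106 rows without a sequence, not placed in a group, held 8.59% of the pOC counts and 7.19% of the mOC counts, so the ranks hold for the placed rows only.

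**Figure D1:**
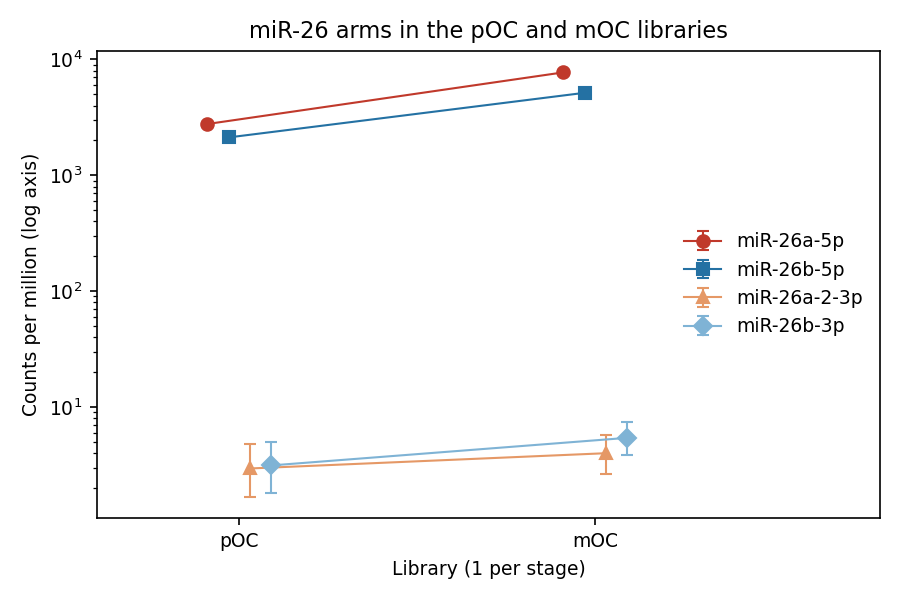
Counts scaled to CPM (log axis) of the 4 listed miR-26 strands in the pOC and mOC libraries, 1 library each, with 95% counting intervals as bars. The guide strands lie near 2773 and 2124 CPM in pOC and near 7733 and 5153 CPM in mOC, with bars smaller than the symbols, while the 3p strands stay under 10 CPM with intervals that overlap.

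The 3p strands, which are usually degraded after the guide is chosen, were scarce. miR-26a-2-3p had 16 counts in pOC and 28 in mOC, or 2.95 and 3.99 CPM, a 1.35-fold difference with an interval of 0.708 to 2.68. miR-26b-3p had 17 and 38 counts, or 3.13 and 5.41 CPM, a 1.73-fold difference with an interval of 0.953 to 3.27. Neither difference was detectable at this depth, and neither strand was called. The ratio of guide to 3p strand, which does not depend on how the libraries are scaled, was tested directly by the exact conditional interval of the odds ratio. For miR-26b it was 679 in pOC and 952 in mOC, 1.40 times as high in mOC with an interval of 0.742 to 2.55. For miR-26a-5p over miR-26a-2-3p it was 941 and 1938, 2.06 times as high with an interval of 1.04 to 3.94. The guide reads of this ratio came from both miR-26a loci and the 3p reads from Mir26a-2 alone, so it is not the strand ratio of 1 hairpin.

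The 2 guide strands differed from each other as well. There were 1.31 reads of miR-26a-5p for each read of miR-26b-5p in pOC (1.27 to 1.34) and 1.50 in mOC (1.48 to 1.52). The ratio was thus 1.15 times as high in mOC (exact conditional interval 1.12 to 1.18). Adding the 3p rows left it at 1.15, but at 16 to 38 counts each they could hardly move it. This shift between the pair is larger than counting error but small beside the 2.79-fold and 2.43-fold differences of miR-26a-5p and miR-26b-5p between the libraries. It has no replicate check either.

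Among abundant miRNAs few had a larger log2 ratio of mOC over pOC. Of the 83 miRNAs with at least 10000 counts over both, 10 were called higher in mOC and 1, miR-122-5p, a liver and serum miRNA, lower (log2 ratio -2.32). Over all 899 miRNAs, 5.45% were called higher and 7.68% lower. By log2 ratio miR-26a-5p was at place 3 of these 83, after miR-142a-3p (2.58) and let-7f-5p (1.57), and miR-26b-5p was at place 7. Between the pair stood let-7d-5p (1.46), miR-210-3p (1.34) and miR-374b-5p (1.31). In absolute terms miR-26a-5p gained 4960 CPM, the largest gain but 8 in the library, and miR-26b-5p gained 3028 CPM, at place 11. The leading gains by this measure were those of let-7i-5p (32411 CPM, 1.53-fold) and miR-21a-5p (11214 CPM, 1.13-fold), both of which were much more abundant to begin with. The places by log2 ratio depended on the count minimum. Among the 171 miRNAs with at least 1000 counts, miR-26a-5p was at place 4 and miR-26b-5p at place 11. Among the 560 with at least 10 counts they were at places 25 and 38. The median log2 ratio of these 560 miRNAs was 0.04.

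**Figure D2:**
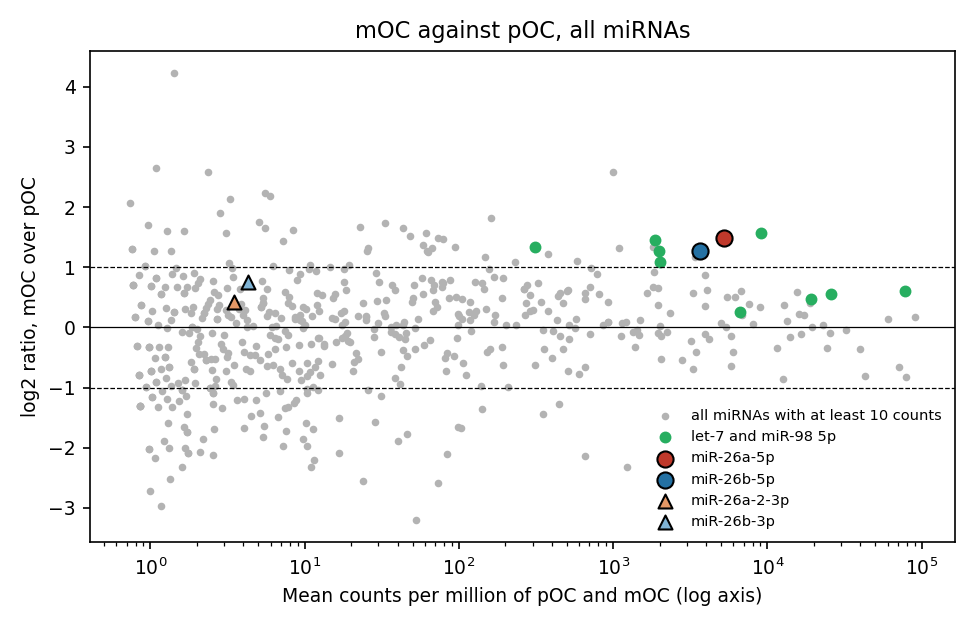
Log2 ratio of mOC over pOC against mean CPM (log axis) for the 560 miRNAs with at least 10 counts, 1 point each, with dashed lines at a 2-fold difference. miR-26a-5p (1.48) and miR-26b-5p (1.28) lie above the upper dashed line in the sparse right part of the plot, beside 5 of the 9 let-7 and miR-98 guide strands, and both 3p strands lie between the lines.

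Guide strands of the let-7 and miR-30 families offered a comparison with other abundant seed families. The 9 let-7 and miR-98 guide strands summed to 11.2% of the pOC and 17.6% of the mOC counts, a 1.57-fold difference (1.56 to 1.57). The miR-26 sum relative to that let-7 sum was 1.68 times as high in mOC as in pOC (1.66 to 1.70). The largest part of the let-7 sum was let-7i-5p (61120 and 93530 CPM, 1.53-fold), so this ratio does not hold for each member. Of the 9 let-7 and miR-98 strands, 5 were called higher in mOC. Among them let-7f-5p, at 2.97-fold, exceeded both miR-26 guide strands, and let-7d-5p (2.75-fold) and let-7e-5p (2.53-fold) exceeded miR-26b-5p (2.43-fold). The 5 miR-30 guide strands summed to 4.66% and 5.13% of the counts, and relative to them the miR-26 sum was 2.39 times as high in mOC (2.35 to 2.42).

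The result was next set against miRNAs that are commonly used as references in PCR assays, since a ratio of 2 rows needs no scaling of the libraries. Relative to each of 8 such miRNAs both guide strands were higher in mOC, with every interval above 1, but the size depended on the reference. For miR-26a-5p the ratio ran from 1.31 (1.27 to 1.35) relative to let-7a-5p to 5.05 (4.95 to 5.16) relative to miR-25-3p. For miR-26b-5p it ran from 1.14 (1.10 to 1.18) to 4.39 (4.29 to 4.50) with the same 2 references. The references themselves moved between libraries. let-7a-5p, at 6946 pOC and 19114 mOC counts, was itself called higher (2.13-fold), and miR-25-3p went from 88307 to 63018 counts (log2 ratio -0.86). Relative to miR-93-5p, whose log2 ratio was 0.11, miR-26a-5p was 2.58 times as high (2.53 to 2.63) and miR-26b-5p 2.24 times (2.19 to 2.30). Relative to miR-191-5p (log2 ratio 0.60) the values were 1.84 (1.81 to 1.88) and 1.60 (1.57 to 1.64).

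**Figure D3:**
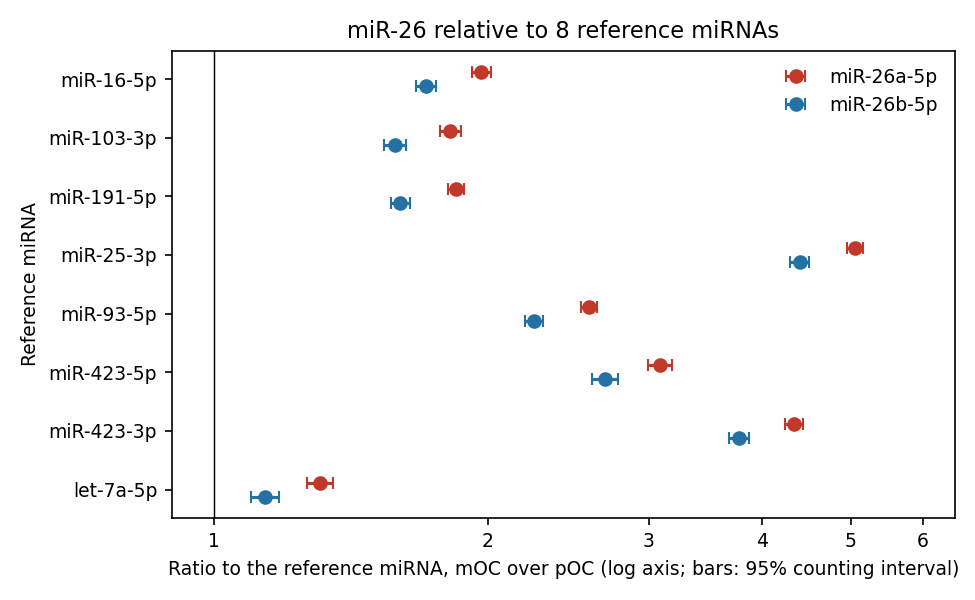
Ratio of miR-26a-5p and of miR-26b-5p to each of 8 reference miRNAs in mOC over the same ratio in pOC (log axis), with exact 95% counting intervals as bars. All 16 points lie above 1, from 1.14 for miR-26b-5p over let-7a-5p to 5.05 for miR-26a-5p over miR-25-3p. For every reference miR-26a-5p has the higher value by the same factor of 1.15, since a shared reference leaves the ratio of the pair unchanged.

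Scaling of whole libraries moved both values together. Over 7 other scalings the log2 ratio ran from 1.32 to 1.75 for miR-26a-5p and from 1.12 to 1.55 for miR-26b-5p, and both were called higher under each. The largest values came with the authors' own constants per library. These also moved the median log2 ratio of the 560 miRNAs with at least 10 counts to 0.31. Relative to the median of these 560, miR-26a-5p stood 1.44 and miR-26b-5p 1.24 higher on the log2 scale under library totals. A constant per library shifts all miRNAs alike, so these differences had to be nearly the same under the authors' constants. With the markers of other sources taken out of the totals, the values were 1.48 and 1.27. These markers held 0.509% of the pOC and 0.271% of the mOC counts, so taking them out could hardly move the values. Any miR-26 reads from such sources would remain, and were not tested for. Over the 560 miRNAs with at least 10 counts, 8.75% were higher in mOC and 12.3% lower. Of the 27 markers, 3 were higher in mOC (miR-200a-3p, miR-200b-3p and miR-200c-3p, named after their values were seen) and 12 were lower. The 5 epithelial markers, to which these 3 belong, summed to 62.6 CPM in pOC and 142 CPM in mOC, and none of the 5 was at 0 in either library. They did not all move one way, since miR-141-3p, also among the 5, was called lower (28 and 15 counts). Their part in the miR-26 result was not tested.

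**Figure D4:**
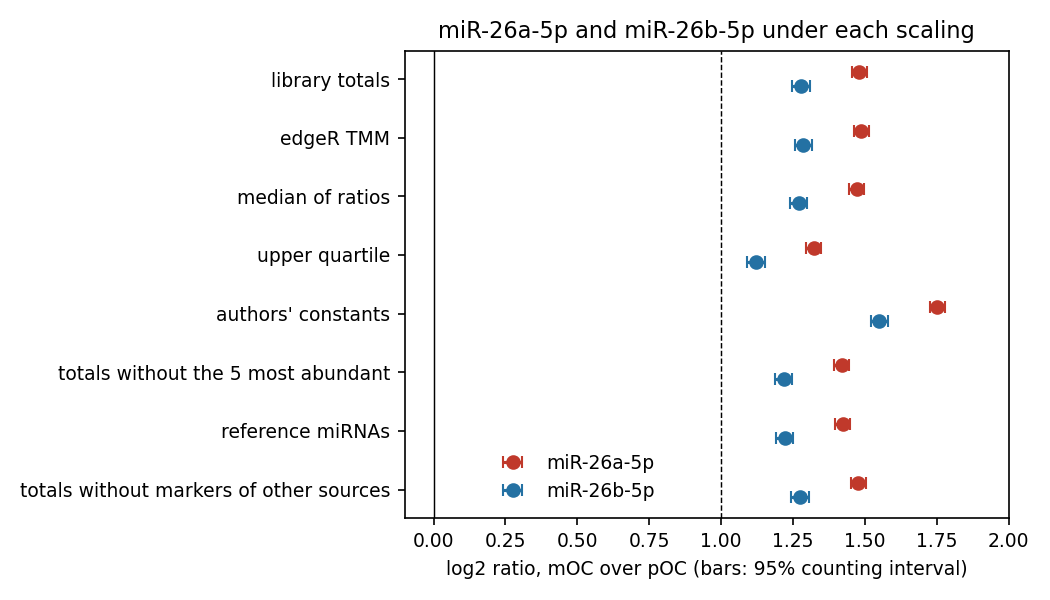
Log2 ratio of mOC over pOC for miR-26a-5p and miR-26b-5p under library totals and 7 other scalings, with 95% counting intervals as bars, a solid line at 0 and a dashed line at a 2-fold difference. Every point lies right of the dashed line, the lowest at 1.12 (miR-26b-5p, upper quartile) and the highest at 1.75 (miR-26a-5p, the authors' constants).

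What a spread between cultures would do could be asked only by assuming one. In the authors' deposited table for pOC over mOC, miR-26a-5p had a log2 fold change of -1.49 (p = 1.12e-12) and miR-26b-5p one of -1.29 (p = 6.46e-10), and both are in the authors' list of miRNAs lower in pOC, which holds 5.67% of all miRNAs. Those p-values were rebuilt within 1% for 899 of 899 miRNAs by edgeR's exact test with an assumed biological coefficient of variation of 0.1. With an assumed coefficient of 0.2, the adjusted p of edgeR's exact test (Benjamini-Hochberg over all 899) was 0.0129 for miR-26a-5p and 0.0375 for miR-26b-5p. At 0.4 the unadjusted p of the same exact test was 0.0803 and 0.129, the adjusted p was 1 for both, and no miRNA passed an adjusted 0.05 in either direction, while 9 were at least 2-fold higher and 22 at least 2-fold lower in mOC at an unadjusted p under 0.05. Which of these coefficients holds for such cultures cannot be told from these libraries.

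The comparison with the library headed R was made by the authors for each stage, and their p-values over R were not rebuilt. In the authors' deposited table for pOC over R, miR-26a-5p stood at 0.834-fold (log2 -0.26, p = 0.201) and miR-26b-5p at 0.799-fold (log2 -0.32, p = 0.114), and neither is in the authors' list of lower miRNAs, which holds 4.12% of the 899. In the authors' deposited table for mOC over R, miR-26a-5p stood at 2.26-fold (log2 1.17, p = 1.49e-08) and is in their list of higher miRNAs, which holds 5.78%. There, in the authors' deposited table for mOC over R, miR-26b-5p stood at 1.88-fold (log2 0.91, p = 1.01e-05), below the 2-fold difference that their list requires. By these values of the authors' deposited tables both guide strands had the order pOC, R, mOC from low to high, with pOC and R apart by less than the authors' threshold. These p-values of the authors' deposited tables rest on the counts of 1 library each, and the comparisons share R, so their values are set side by side only. The ratio of miR-26a-5p to miR-26b-5p that follows from the authors' deposited tables was 1.04 times that of R in pOC and 1.20 times that of R in mOC.

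For the 3p strands, the authors' deposited table for pOC over R gave 0.962-fold for miR-26a-2-3p (p = 1) and 0.640-fold for miR-26b-3p (p = 0.243). For mOC over R the authors' deposited table gave 1.26-fold (p = 0.518) and 1.07-fold (p = 0.918). None of these is in a list of the authors.

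Likeness to other miRNAs was measured as the Euclidean distance between the 3 log2 fold changes of the authors' deposited tables, over 170 other miRNAs with at least 1000 counts in pOC and mOC together. The 3 fold changes come from 3 libraries, so each is nearly fixed by the other two, and the distance is a description. Nearest to miR-26a-5p was let-7e-5p (distance 0.23), a let-7 guide strand, followed by miR-26b-5p itself (0.34), let-7d-5p (0.42), miR-32-5p (0.56) and let-7a-5p (0.58). Nearest to miR-26b-5p were miR-32-5p (0.23), let-7d-5p (0.30), miR-26a-5p (0.34), let-7e-5p (0.38) and miR-1291 (0.49). The choice itself fixed that these miRNAs were higher in mOC than in pOC, since pOC over mOC is part of the distance, and their counts are given as a description. let-7e-5p had 956 counts in pOC and 3121 in mOC, a 2.53-fold difference (2.35 to 2.72). miR-32-5p, which has the seed of the miR-92 family, had 1992 and 5537, a 2.15-fold difference (2.04 to 2.27). miR-1291 had 288 and 942 counts, a 2.53-fold difference (2.22 to 2.90).

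**Figure D5:**
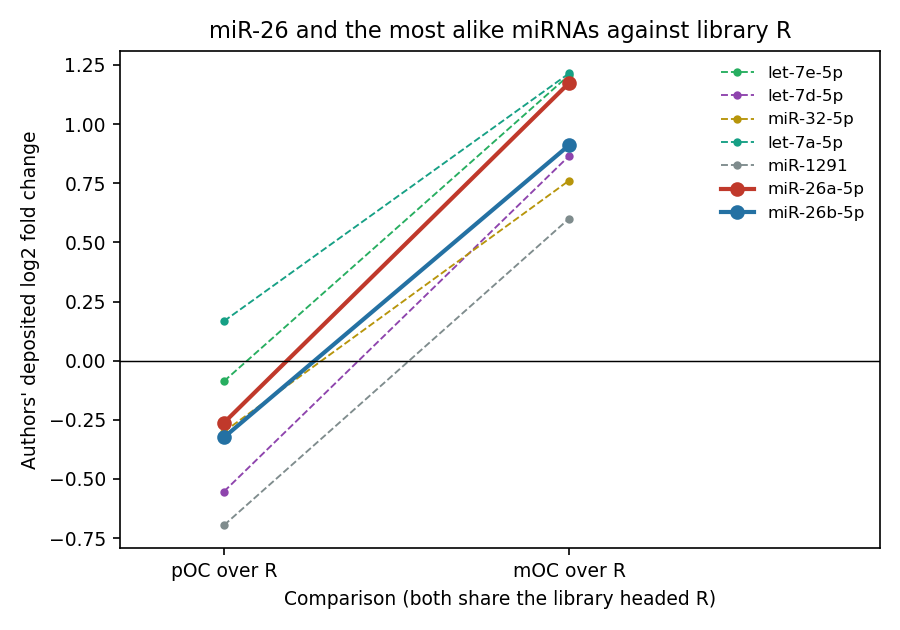
The authors' deposited log2 fold changes over the library headed R, for pOC and for mOC, of miR-26a-5p, miR-26b-5p and the 5 other miRNAs nearest to them. miR-26a-5p goes from -0.26 to 1.17 and miR-26b-5p from -0.32 to 0.91, and all 7 lines are higher for mOC than for pOC. The lines were chosen for their likeness.

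miR-26a-5p was 1 of 14 miRNAs listed for a described role as restraints on osteoclast formation, of which 13 had at least 10 counts. Of these, 2 were higher in mOC. Over the 560 miRNAs with at least 10 counts, 8.75% were higher and 12.3% lower, and nothing particular to the list is read from its counts. The 2 were miR-26a-5p and miR-34a-5p, a target of p53 (806 and 2221 counts, 2.13-fold). Lower were another 2, miR-141-3p (28 and 15 counts) and miR-145a-5p (61 and 31 counts). The most abundant of the list were miR-146a-5p, induced by inflammatory signalling, at 546677 pOC and 400512 mOC counts, and miR-30a-5p at 122309 and 162999, at log2 ratios of -0.82 and 0.04. miR-186-5p, at 18611 and 30883 counts, had a log2 ratio of 0.36. The median of the list was -0.37, against 0.04 over the 560 miRNAs with at least 10 counts, and 1.48 for miR-26a-5p. Of 8 miRNAs listed as promoting osteoclast formation, 7 had at least 10 counts, and 2 of these were higher, 2 lower, with a median of 0.18. The shares over the 560 miRNAs with at least 10 counts were again 8.75% and 12.3%, and nothing particular to this list is read from its counts either. The most abundant of the promoting list, miR-21a-5p, stood at 0.18 and miR-183-5p at 0.06, while the hypoxia-induced miR-210-3p stood at 1.34 and miR-148a-3p at -2.13.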

How the data were processed

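Mature miRNAs were counted in 1 library per stage. The authors' tables hold, per the file headers, raw counts of reads for each miRNA. The deposited normalised values are taken as a score, since they equal the raw counts over a constant of each library. The authors' log2 fold change, fold change as a ratio and unadjusted p-value were copied from the deposited tables. The submitters' processing notes name FastQC, HISAT2, StringTie and GRCm38, without roles; trimming, annotation release and multi-mapping are not given in the sources. Columns were matched by name, POC to pOC and OC to mOC, which is the osteoclast sample left once POC is placed. Of 36 columns of per-sample values 32 were not used, among them all headed R, so the planned comparisons with BMM gave way to the authors' fold changes over R.

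Counts were scaled to library totals, with a pseudocount of 1 count for log2 ratios. Fold intervals are Clopper-Pearson intervals, and intervals for ratios of ratios are exact conditional ones (scipy 1.17.1). The calling rule was run on simulated counts that had counting error only and set changes larger than 2-fold in miRNAs of at least 50 expected counts. That run could not test calls near the threshold, at lower counts or with a spread between cultures. TMM, upper-quartile scaling and the exact test used edgeR 4.0.16, the last with assumed spreads because no replicates exist. Sequences are RefSeq's (GRCm38.p6) and hosts GENCODE M21's. The members and the lists of miRNAs were chosen with earlier results of these data known. The miRNAs named are the members, their other arms, the 5 nearest to each in the authors' 3 fold changes, and up to 4 of each list by counts. Also named are the miRNAs ranked beside the members, and called or extreme ones, which were chosen after their values were seen.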

Additional observations from a re-analysis of the deposited data

How the results depend on the processing

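With 1 library per stage, a spread between cultures could not be measured, no replicate could be left out, and at 16 to 38 counts the 3p strands allow no firm statement. No paired analysis was possible because each group had 1 library. A scaling shifts all log2 ratios by 1 constant, and the sum of the pair follows from its members, so results under other scalings are not independent checks. The log2 ratios of miR-26a-5p, miR-26b-5p and their sum kept their sign and were called higher under each of the 7 other scalings. With upper-quartile scaling they were 1.32, 1.12 and 1.24, with the authors' constants 1.75, 1.55 and 1.67, without the 5 most abundant miRNAs 1.42, 1.22 and 1.33, and with the summed reference miRNAs 1.42, 1.22 and 1.34. TMM, median-of-ratios scaling, totals without markers of other sources, no pseudocount and a pseudocount of 5 counts each moved them by less than their counting interval. Under an assumed coefficient of variation of 0.4, chosen after seeing the data, the log2 fold changes of edgeR's exact test were 1.49 and 1.29 and did not pass (adjusted p of 1 for both). Of all miRNAs, 80 were higher and 49 lower with the authors' constants, 62.0% of those called against 41.5% with totals, since that scaling shifts all ratios by 0.27. With at least 50 counts required in 1 library, 35 rather than 69 were lower, as fewer miRNAs were then tested.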
